A study of Mus musculus with 18 samples.

Results

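The cytochrome P450 enzymes of families 1, 2 and 3 were followed in hepatocytes from the pericentral (PC) and periportal (PP) sides of the mouse liver lobule. Members were the Ensembl genes of the count table whose mouse symbol begins with Cyp1, Cyp2 or Cyp3, followed by a subfamily letter and a number and nothing more. This rule, which uses no measured value and leaves out pseudogenes, found 58 members among 28030 genes. Of these, 40 passed the filter on low counts and were tested among 12477 genes. The mice were 12-week-old wild-type C57BL/6J males on normal chow. All had been trained for 3 days to a 16 h overnight fast and 8 h of daytime feeding, and on the last day they had food with 20% sucrose in the drinking water. Fed mice (0 h) were killed at clock hour 13 after 4 h of feeding. Food and sucrose were taken from the remaining mice at that hour, and these were killed 8 h later at clock hour 21 or 24 h later at clock hour 13. The 2 zones and 3 states gave 6 groups of 3 libraries. Fasting for 8 h and the change of clock hour cannot be told apart. Zones were separated with digitonin, a detergent that destroys the hepatocytes of the side from which it is infused, so each library is a bulk cell preparation, in which fewer cells of a type and less RNA per cell cannot be told apart. No label says whether replicates were separate mice, so p-values measure the spread between these libraries, which may be technical.

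Cytochrome P450 enzymes are heme proteins of the endoplasmic reticulum that insert oxygen into lipophilic substrates, with electrons from NADPH passed on by P450 reductase and cytochrome b5. Families 1 to 3 clear most drugs and environmental chemicals in the liver, and some members act on steroids, bile acids, vitamin D and fatty acids. Liver P450 enzymes are best known for their zonation: many are concentrated around the central vein, where Wnt signals keep the pericentral programme active. The aryl hydrocarbon receptor (AHR) induces family 1, while the constitutive androstane receptor (CAR) and the pregnane X receptor (PXR) induce many members of families 2 and 3.

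The libraries held 18359911 to 26384358 estimated counts. Values are given as CPM, each library's counts scaled to a common total and corrected for composition with TMM. Hepatocyte markers were abundant, with a summed level of 5 markers between 61726 and 97306 CPM in PC and between 113542 and 184246 CPM in PP. Markers of other cell types were low but leaned to PP: on average over the states, 3 of 5 for Kupffer cells and leukocytes (Clec4f, Cd5l and Vsig4), 3 of 4 tested for sinusoidal endothelium (Clec4g, Kdr and Pecam1), 2 of 3 tested for cholangiocytes (Sox9 and Spp1) and 0 of 3 tested for stellate cells were higher in PP by edgeR. Summed over each list, the range was 0.186 to 4.38 CPM in PC and 0.404 to 17.4 CPM in PP for Kupffer cells and leukocytes, and 2.63 to 9.29 and 3.43 to 25.8 CPM for endothelium. It was 19.3 to 37.6 and 32.8 to 56.7 CPM for cholangiocytes, with Epcam at 0 in every library, and 0.696 to 4.89 and 0.969 to 14.2 CPM for stellate cells. Their part in the zone differences was not tested. All 10 pericentral markers were lower and all 10 periportal markers were higher in PP on average over the states. One library stood apart. Replicate 2 of PC at 24 h had 111 CPM of the pericentral marker Glul, against 928 and 707 CPM in replicates 1 and 3, and its 10 pericentral markers summed to 1194 CPM, against 3574 and 3440 CPM. Results at 24 h in PC are therefore also given without it where it matters.

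Many members are near-identical copies, which decides how well reads can be assigned to them. Among the 40 tested members, the median share of 31-base words found in no other gene's transcript was 73.5%. In 8 members this share was under 50%, and in 11 it was over 90%. Cyp2a5, the coumarin hydroxylase, and Cyp2a4, a female-biased steroid hydroxylase, are the closest case examined that differs in level, since their coding sequences differ at 23 of 1482 bases (98.4% identity). Bases 592 to 741 of both coding sequences (GENCODE M21 transcripts on GRCm38), with the 7 differing bases in capitals, show how little separates them.
Cyp2a4: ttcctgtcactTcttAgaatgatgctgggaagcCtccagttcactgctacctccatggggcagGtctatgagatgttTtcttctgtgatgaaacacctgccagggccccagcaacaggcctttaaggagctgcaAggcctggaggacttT
Cyp2a5: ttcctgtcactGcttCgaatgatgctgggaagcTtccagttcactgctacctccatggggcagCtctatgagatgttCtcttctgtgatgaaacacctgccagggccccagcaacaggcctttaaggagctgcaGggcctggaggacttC
Cyp2a12 and Cyp2a22 were 97.0% identical, Cyp2c37 and Cyp2c50 96.1%, and Cyp2c40 and Cyp2c69 97.9%. The distribution of reads among such copies was estimated by the authors' software, so the level of each copy is uncertain. By contrast, Cyp2e1 and Cyp2f2, which were higher in opposite zones, were 56.5% identical and had 93.0% and 88.0% of their words to themselves.

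Promoters of the members were searched for motifs, and those of a few chosen members are shown. RefSeq (GRCm38.p6) gave 53 promoters, from 250 bases before to 50 after the start, for 50 of the 58 members. The 250 bases before the start of Cyp2e1 (chr7:140763569-140763818, plus strand) and Cyp1a2 (chr9:57683656-57683905, minus strand), both high in PC, are shown beside those of Cyp2f2 (chr7:27119705-27119954, plus strand), high in PP. Capitals mark CTTTGAA (a TCF/LEF-type motif) and TATAAA, on either strand.
Cyp2e1: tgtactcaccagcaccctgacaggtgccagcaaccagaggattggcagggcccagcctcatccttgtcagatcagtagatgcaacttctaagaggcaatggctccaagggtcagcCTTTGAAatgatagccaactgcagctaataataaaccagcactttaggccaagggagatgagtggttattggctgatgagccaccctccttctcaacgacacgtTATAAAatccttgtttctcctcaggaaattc
Cyp1a2: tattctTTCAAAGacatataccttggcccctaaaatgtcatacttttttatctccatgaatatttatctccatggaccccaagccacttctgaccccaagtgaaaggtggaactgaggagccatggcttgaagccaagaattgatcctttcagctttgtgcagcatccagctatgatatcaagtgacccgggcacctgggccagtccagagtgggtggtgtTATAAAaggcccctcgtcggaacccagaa
Cyp2f2: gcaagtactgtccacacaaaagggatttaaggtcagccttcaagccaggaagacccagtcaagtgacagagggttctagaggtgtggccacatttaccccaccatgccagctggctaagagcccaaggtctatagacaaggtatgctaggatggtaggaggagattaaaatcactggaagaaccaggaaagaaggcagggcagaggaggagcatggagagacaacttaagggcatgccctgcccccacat
CTTTGAA was present in 3 of the 53 member promoters, those of Cyp1a2, Cyp2e1 and Cyp3a13, near its share of 5.14% among all 32851 promoters. Of the members called lower in PP in all 3 states, only Cyp1a2 and Cyp2e1 had a match. Of the 40 tested members, 34 had a RefSeq promoter, so some of these may not have been searched. A link between this motif and zone was not tested. TATAAA was present in 26 of the 53 member promoters, against 13.6% of all promoters. The stretch shown for Cyp2f2 holds neither. A further pair is shown for members with other patterns. Cyp2a5 (chr7:26835089-26835338, plus strand) carries TTATGCAA, a D-box-type motif, and TATAAA, both in capitals. Cyp2c70 (chr19:40187287-40187536, minus strand), whose level fell in both zones after 24 h, carries CAAAGTCCA, an HNF4-type motif, and TATAAA on the other strand.
Cyp2a5: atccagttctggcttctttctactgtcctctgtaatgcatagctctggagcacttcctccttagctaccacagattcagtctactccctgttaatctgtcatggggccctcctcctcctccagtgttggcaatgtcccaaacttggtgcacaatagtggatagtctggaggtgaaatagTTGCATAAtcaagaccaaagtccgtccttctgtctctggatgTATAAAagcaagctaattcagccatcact
Cyp2c70: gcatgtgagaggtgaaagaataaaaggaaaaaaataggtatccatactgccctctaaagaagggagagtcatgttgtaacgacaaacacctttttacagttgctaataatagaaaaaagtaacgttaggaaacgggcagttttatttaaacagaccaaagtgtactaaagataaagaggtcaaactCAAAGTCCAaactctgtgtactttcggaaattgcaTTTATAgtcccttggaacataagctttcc
TTATGCAA was found in 5 member promoters (Cyp2a4, Cyp2a5, Cyp2b10, Cyp2b19 and Cyp2b23) and in 0.743% of all promoters. CAAAGTCCA was found in 8 (Cyp2c40, Cyp2c65, Cyp2c67, Cyp2c68, Cyp2c69, Cyp2c70, Cyp3a11 and Cyp3a16) and in 0.475% of all promoters. The AHR core motif GCGTG was found in 10 member promoters and in 32.4% of all. The letters TTATGTAA and TTGCGCAA and the HNF1 palindrome were in 0 member promoters, and in 0.938%, 0.183% and 0.00913% of all promoters. Both strands were searched, and related members share ancestry, so their matches are not independent.

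Members of the family took 2.89% to 4.41% of all counts in the 9 PC libraries and 1.27% to 1.79% in the 9 PP libraries, so the zones did not overlap. Summed over members, the level in PC was 2.38 times that in PP in fed mice, 1.83 times after 8 h and 2.30 times after 24 h. On a scale of CPM per kilobase of transcript, the highest levels in PC were those of Cyp2e1 (5763), Cyp3a11 (4129), Cyp2c29 (1322) and Cyp2a5 (1299). In PP the order was Cyp3a11 (2577), Cyp2f2 (1182), Cyp2d9 (629), Cyp2d26 (553) and Cyp3a25 (469), with Cyp2e1 (433) in sixth place. Cyp3a11 contributed 30.9% of the summed CPM of all members over the 18 libraries, more than any other member.

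**Figure D1:**
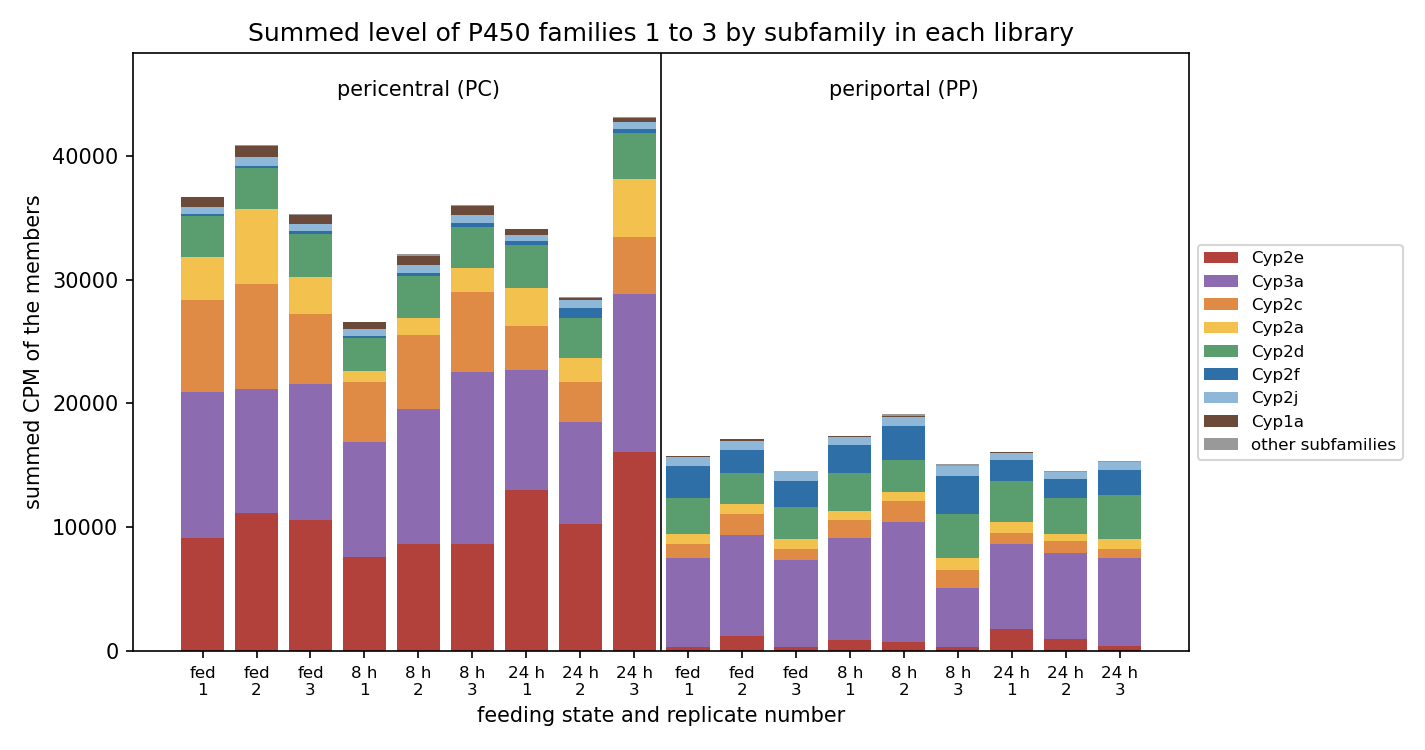
Stacked bars show the summed CPM of the members by subfamily (colours) in each of the 18 libraries, with PC on the left and PP on the right of the line. The PC bars run from 26594 to 43110 CPM and the PP bars from 14533 to 19129 CPM.

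The zone comparison asked which members differed between the 2 sides of the lobule in each feeding state. In fed mice 22 of 40 tested members differed (edgeR adjusted p under 0.05), against 8.01% of all genes tested. Of these, 18 were lower in PP (4.13% of all genes) and 4 higher (3.89%). After 8 h it was 16, against 7.14% of all genes, with 13 lower (3.42%) and 3 higher (3.72%). After 24 h it was 14, against 4.17% of all genes, with 13 lower (2.47%) and 1 higher (1.7%). Averaged over the 3 states, 25 members differed, against 20.3% of all genes, with 20 lower (9.96%) and 5 higher (10.3%). The median log2 fold change (PP over PC) of the tested members was -0.92 in fed mice, -0.45 after 8 h and -0.31 after 24 h, while that of all genes lay between 0.000942 and 0.00695. Lower in PP in all 3 states were 11 members: Cyp1a2, Cyp2a5, Cyp2c29, Cyp2c37, Cyp2c38, Cyp2c39, Cyp2c50, Cyp2c67, Cyp2c68, Cyp2e1 and Cyp2g1. The share of all genes with that pattern was not counted, but it cannot exceed the 2.47% lower at 24 h. Cyp2f2 was the only member called higher in PP in all 3 states (at most 1.7% of all genes). In 15 members the zone was called neither in a state nor on average, a pattern not counted over all genes. Cyp2d11 and Cyp2g1 passed the low-count filter through PC libraries alone. Such a passage selects for a high level in PC, so the zone call of Cyp2g1 is no evidence of zonation. Without these 2 members, 17 of 38 were lower in PP in fed mice, 12 after 8 h, 12 after 24 h, 19 on average and 10 in all 3 states. The 8 h call of Cyp2g1 was lost in 10 alternatives and its fed call in 2.

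**Figure D2:**
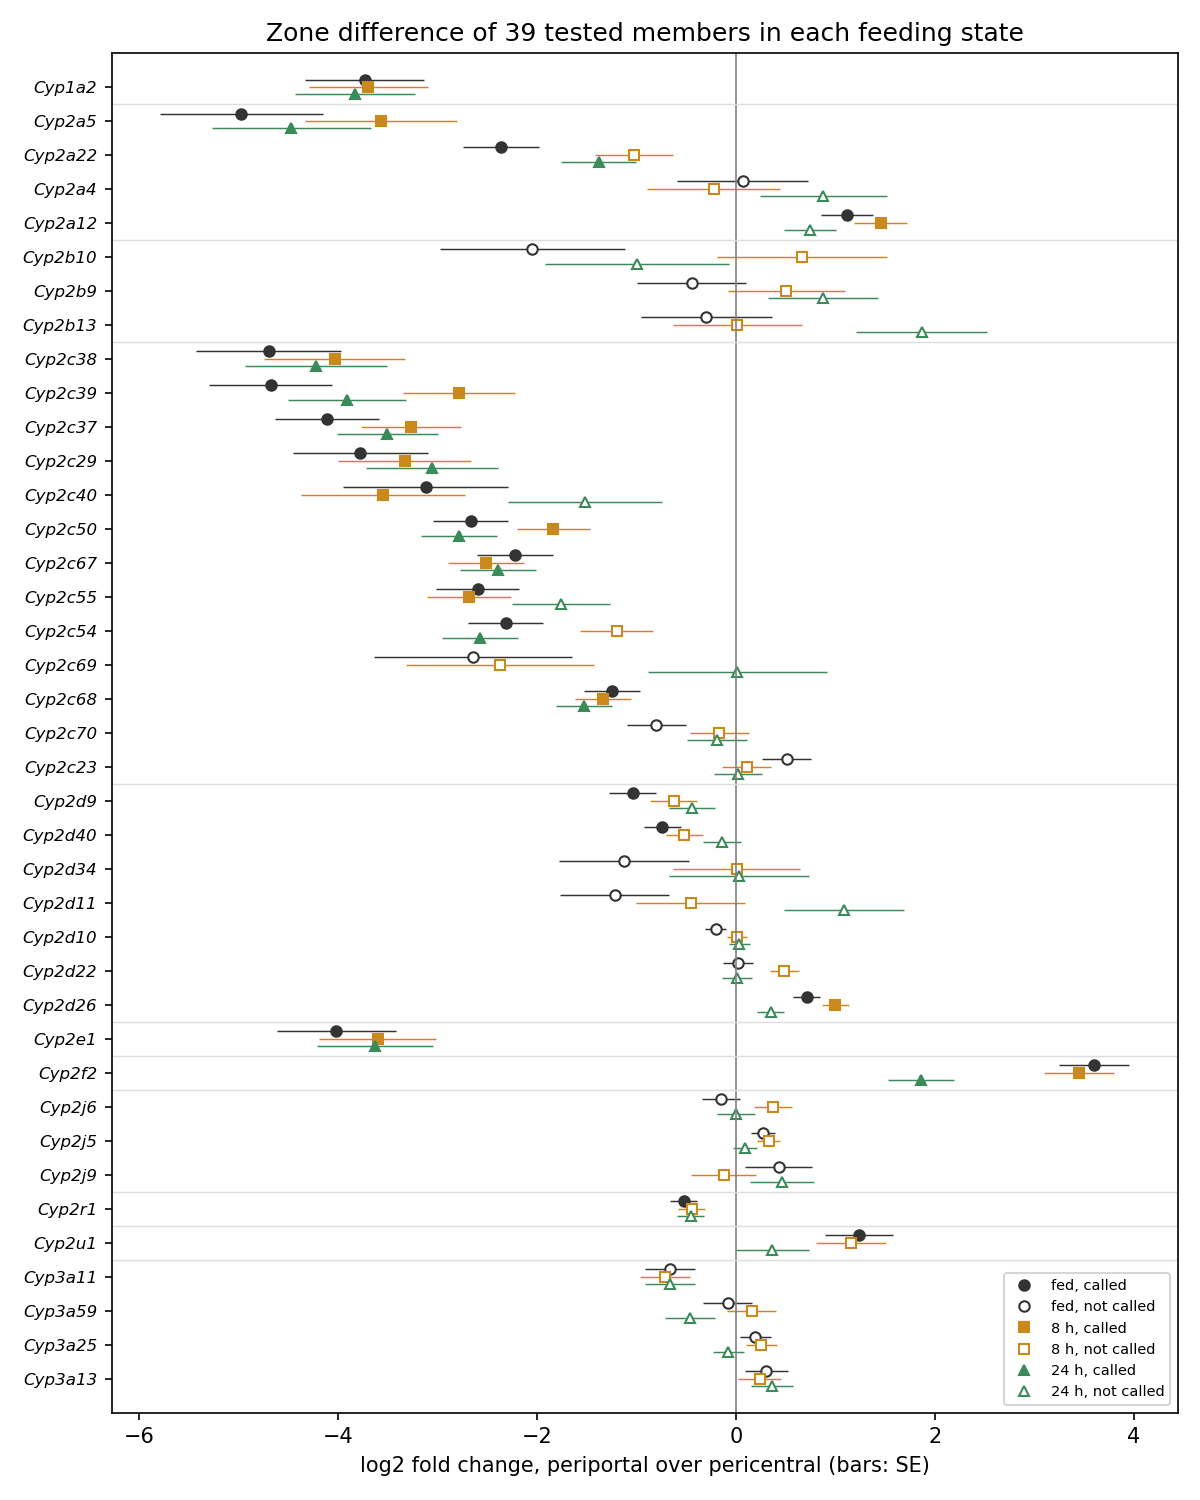
Points give the log2 fold change of PP over PC for 39 tested members in the fed, 8 h and 24 h states, with bars for the standard error, filled where edgeR called the member and open where it did not. Cyp2g1 is left out because it had 0 counts in PP at 24 h. Members of Cyp1a, Cyp2e and most of Cyp2c lie left of 0, and Cyp2f2 and Cyp2a12 lie right of it.

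Cyp2e1 (ENSMUSG00000025479, chr7:140763739-140774987), which oxidises ethanol, acetone and acetaminophen, was the most abundant member in PC. Its 3 PC libraries had 9113, 11135 and 10557 CPM in fed mice, 7611, 8641 and 8687 CPM after 8 h, and 12998, 10266 and 16062 CPM after 24 h. In PP it had 373, 1206 and 325 CPM, then 937, 766 and 351 CPM, then 1826, 944 and 417 CPM. The zones did not overlap in any state. In fed mice this gave a log2 fold change of -4.02 (SE 0.60, edgeR adjusted p 0.000684), with -3.60 after 8 h and -3.63 after 24 h. Cyp1a2 (ENSMUSG00000032310, chr9:57676937-57683703), the AHR target that oxidises caffeine and aromatic amines, followed the same order. It had 737, 920 and 719 CPM in fed PC, 566, 782 and 756 CPM after 8 h, and 448, 202 and 387 CPM after 24 h. In PP the values were 39, 119 and 21.0 CPM, then 65.7, 65.4 and 31.3 CPM, then 38.7, 19.2 and 15.1 CPM. The ratio of PC to PP was 13.3 in fed mice, 12.9 after 8 h and 14.2 after 24 h, or 17.1 at 24 h without PC replicate 2. In fed mice the difference was -3.73 on the log2 scale (SE 0.60, edgeR adjusted p 0.0014). Cyp1a1, the strongly inducible AHR target, and Cyp1b1 did not pass the filter and reached at most 0.373 and 0.465 CPM.

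**Figure D3:**
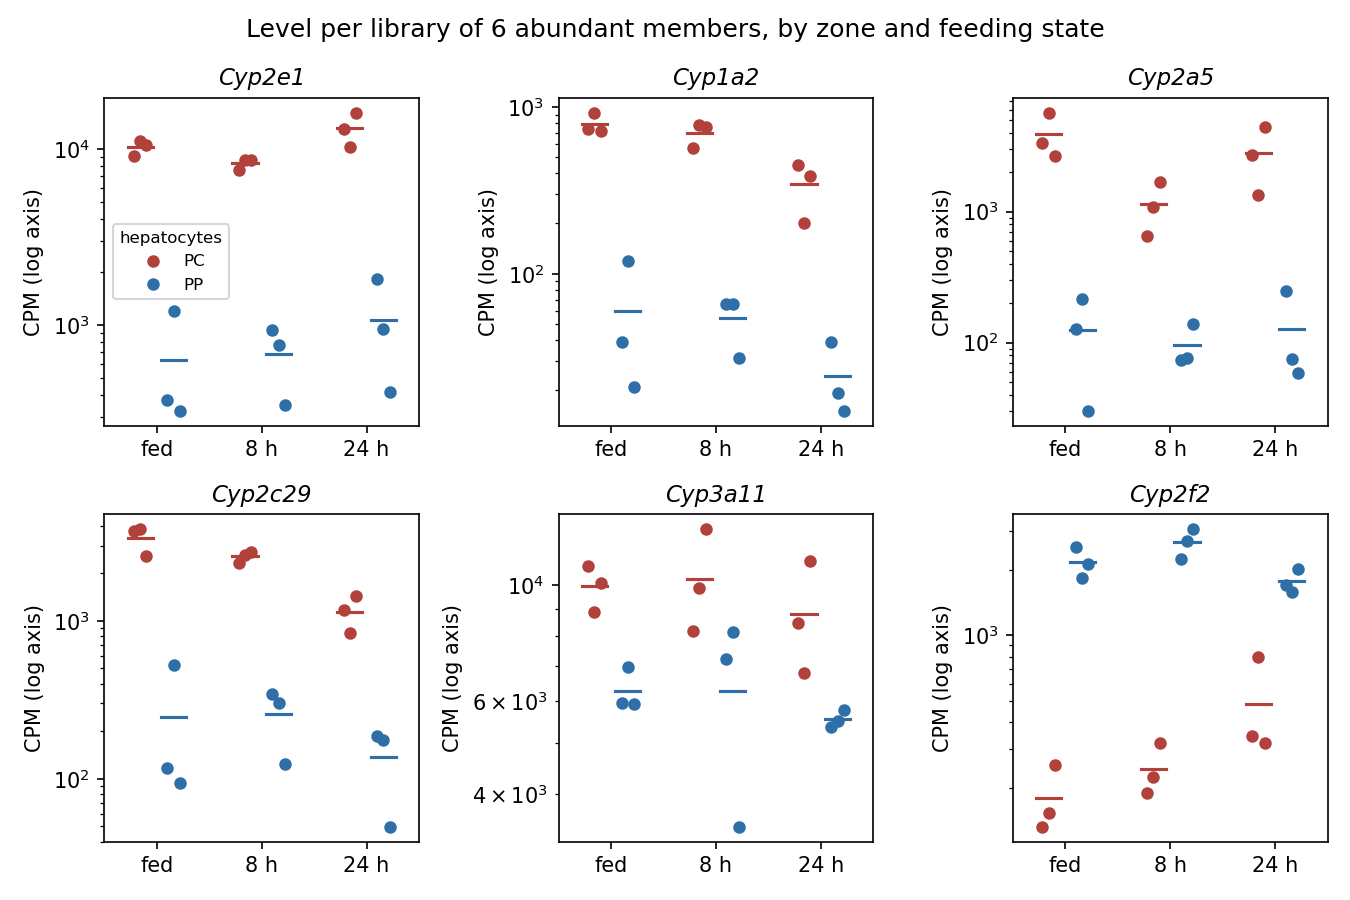
Each dot is 1 library (CPM, log axis) of the members Cyp2e1, Cyp1a2, Cyp2a5, Cyp2c29, Cyp3a11 and Cyp2f2 in the fed, 8 h and 24 h states, with PC in red, PP in blue and a line at the mean of 3. PC and PP dots are separate in all 3 states for each member shown, most narrowly for Cyp3a11 at 8 h, where PP reached 8144 CPM and PC began at 8168 CPM.

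The Cyp2a subfamily was split between the zones. Cyp2a5 (ENSMUSG00000005547, chr7:26835305-26843548) had 3327, 5668 and 2674 CPM in fed PC, 657, 1090 and 1681 CPM after 8 h, and 2711, 1345 and 4388 CPM after 24 h. In PP it had 127, 216 and 30.2 CPM, then 73.6, 76.1 and 139 CPM, then 248, 75.1 and 59.2 CPM. The fed log2 fold change of -4.97 (SE 0.82, edgeR adjusted p 0.00178) was the most negative among the 40 members, and it was -3.57 after 8 h and -4.47 after 24 h. The 24 h ratio of PC to PP was 22.1, or 27.9 without PC replicate 2. The 8 h call was lost without PP replicate 2 (edgeR adjusted p 0.0592), and the 24 h call when only those 2 groups were fitted (0.0677). Its near-copy Cyp2a4 reached at most 8.46 CPM and was not called for zone, and adding it to Cyp2a5 left the fed ratio at 30.7. Cyp2a12 (ENSMUSG00000060407, chr7:27029081-27037375), a testosterone hydroxylase, went the other way. It had 196, 401 and 337 CPM in fed PC against 689, 619 and 716 CPM in fed PP, and 200.5, 320 and 249 CPM against 596, 692 and 822 CPM after 8 h. Its log2 fold change was 1.12 (edgeR adjusted p 0.0139) in fed mice and 1.46 (edgeR adjusted p 0.00264) after 8 h. After 24 h it was 0.75 (edgeR adjusted p 0.136), with 350, 536 and 290 CPM in PC and 631, 545 and 799 CPM in PP, and 1.04 (edgeR adjusted p 0.0412) without PC replicate 2. Without fed PC replicate 1 the fed call was lost (0.86, edgeR adjusted p 0.0536). Cyp2a22, its near-copy, was higher in PC instead, with 5.60, 11.5 and 4.01 CPM in fed PC against 0.784, 1.60 and 1.69 CPM in fed PP (log2 fold change -2.36, edgeR adjusted p 0.000759). Its zone was not called after 8 h (-1.02) and was lower in PP after 24 h (-1.38). Its mean was 3.05 CPM against 499 CPM for Cyp2a12, and 39.4% of its words were shared with that copy, so its level is uncertain.

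Cyp2f2 (ENSMUSG00000052974, chr7:27119909-27133660), which activates naphthalene in airway club cells, marked PP. It had 2551, 1837 and 2136 CPM in fed PP, 2244, 2704 and 3075 CPM after 8 h, and 1711, 1578 and 2023 CPM after 24 h. In PC it had 132, 152 and 254 CPM, then 190, 223 and 322 CPM, then 345, 793 and 322 CPM. Every PP library was above every PC library. Its fed log2 fold change of 3.60 (SE 0.35, edgeR adjusted p 1.93e-05) was the largest toward PP among the 40 members. It was 3.45 after 8 h and 1.86 (SE 0.33, edgeR adjusted p 0.00379) after 24 h, or 2.41 at 24 h without PC replicate 2. Fitting only the 2 groups at 24 h gave an edgeR adjusted p of 0.0571. Cyp2g1, an olfactory enzyme, was near the detection limit. Its 3 libraries summed to 70 counts in fed PC and 7 in fed PP, to 25 and 2 after 8 h, and to 76 and 0 after 24 h. It passed the filter through PC libraries alone, so these counts are no evidence of zonation.

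The Cyp2c subfamily, 13 tested members whose enzymes act on drugs, retinoids and arachidonic acid, leaned most uniformly to PC. On average over the states 11 were lower in PP (9.96% of all genes) and 0 higher (10.3%), leaving Cyp2c70 and Cyp2c23 not called. Cyp2c29 (ENSMUSG00000003053, chr19:39269405-39330713), a CAR target, led the subfamily. It had 3705, 3815 and 2579 CPM in fed PC, 2338, 2634 and 2721 CPM after 8 h, and 1165, 833 and 1429 CPM after 24 h. In PP it had 116, 528 and 94.7 CPM, then 343, 299.95 and 124 CPM, then 187, 175 and 49.5 CPM. In fed mice the difference was -3.77 on the log2 scale (SE 0.68, edgeR adjusted p 0.00346), with -3.33 after 8 h and -3.06 after 24 h. Fitting only the 2 groups gave edgeR adjusted p 0.0625 in fed mice and 0.0645 after 24 h. The 24 h call was also lost without PC replicate 3 (-2.86), PP replicate 2 (-3.27) or PP replicate 3 (-2.66). Cyp2c38 had 147, 102 and 73.8 CPM in fed PC and 2.15, 9.11 and 1.29 CPM in fed PP, a log2 fold change of -4.69 (edgeR adjusted p 0.00121). Cyp2c39 had 11.7, 9.45 and 6.23 CPM in fed PC and 0.165, 0.599 and 0.294 CPM in fed PP (-4.67, edgeR adjusted p 0.000204). The remaining members called lower on average had log2 fold changes between -3.63 (Cyp2c37) and -1.37 (Cyp2c68). Cyp2c37 at 24 h was not called when only those 2 groups were fitted (edgeR adjusted p 0.0577). Cyp2c40, called in fed mice and after 8 h, was lost in 7 and 6 alternatives, and Cyp2c69 was called only on average (-1.67, edgeR adjusted p 0.0452), which was lost in 16. The sum of Cyp2c37, Cyp2c50 and Cyp2c54, which share reads, was 7.09 times higher in PC in fed mice, 3.75 times after 8 h and 7.42 times after 24 h.

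Cyp3a and Cyp2d were abundant in both zones. Cyp3a11 (ENSMUSG00000056035, chr5:145854426-145879964), the main drug-metabolising CYP3A enzyme of mouse liver, had 10862, 8907 and 10086 CPM in fed PC and 5966, 6973 and 5938 CPM in fed PP. After 8 h the values were 8168, 9890 and 12794 CPM in PC and 7226, 8144 and 3456 CPM in PP, and after 24 h 8455, 6809 and 11141 CPM and 5370, 5517 and 5769 CPM. The zones did not overlap within a state, but the difference did not pass the test there (log2 fold change -0.66, -0.71 and -0.66, with edgeR adjusted p 0.132, 0.105 and 0.176), although fitting only the 2 fed groups gave 0.0175. On average it was lower in PP at -0.68 (SE 0.15, edgeR adjusted p 0.00284). Cyp3a13, Cyp3a25 and Cyp3a59 were not called for zone, with averaged log2 fold changes between -0.13 and 0.30. Cyp2d9, a male-biased steroid hydroxylase, had 1813, 1672 and 1777 CPM in fed PC and 978, 804 and 779.8 CPM in fed PP (-1.04, edgeR adjusted p 0.00995), and its zone was not called after 8 h or 24 h (-0.63 and -0.44). With the replicate number as a block, the 8 h difference of Cyp2d9 was called. Cyp2d26 was higher in PP, with 503, 617 and 604 CPM against 1060, 843 and 921 CPM in fed mice (0.71, edgeR adjusted p 0.00306). After 8 h it had 415, 487 and 502 CPM in PC and 876, 915 and 1018 CPM in PP (1.0, edgeR adjusted p 0.00027). After 24 h it was not called (0.35). Of the other 5 tested Cyp2d members, Cyp2d40 was lower in PP in fed mice (lost without fed PC replicate 1 or 3 or fed PP replicate 1 or 3) and on average, and the zone was not called in Cyp2d10, Cyp2d11, Cyp2d22 and Cyp2d34. Summed over the subfamily, PC over PP was 1.24 in fed mice, 1.02 after 8 h and 1.08 after 24 h.

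Among the smaller subfamilies, Cyp2r1, the vitamin D 25-hydroxylase, had 14.6, 15.9 and 18.2 CPM in fed PC and 11.4, 12.3 and 10.1 CPM in fed PP (log2 fold change -0.52, edgeR adjusted p 0.0221). That call was lost without fed PC replicate 2 or 3 or fed PP replicate 1 or 3 (edgeR adjusted p 0.0529 to 0.101). Cyp2u1, a fatty acid hydroxylase, had 4.18, 4.49 and 4.71 CPM in fed PC and 7.88, 8.83 and 14.8 CPM in fed PP (1.24, edgeR adjusted p 0.0345). Its fed call was lost in 6 alternatives, among them no filter (edgeR adjusted p 0.0527), leaving out any 1 of the fed PC libraries, and leaving out PP replicate 3 (0.90). Cyp2j5, an arachidonic acid epoxygenase of kidney and liver, had 541, 632 and 534 CPM in fed PC and 703, 644 and 715 CPM in fed PP, and was called on average only (0.23, edgeR adjusted p 0.023), which was lost without PC fed replicate 1, PC 24 h replicate 1 or PP 24 h replicate 3. Cyp2b10, the classic phenobarbital-inducible CAR target, had 22.8, 30.8 and 22.5 CPM in fed PC and 4.91, 7.27 and 6.21 CPM in fed PP. These libraries did not overlap, yet the zone was not called (-2.04, SE 0.93, edgeR adjusted p 0.229). When only the 2 fed groups were fitted the adjusted p was 0.000136 by edgeR. Cyp2b9, Cyp2b13, Cyp2j6 and Cyp2j9 were not called for zone.

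The 18 members that were not tested had little RNA. Cyp2j7, Cyp2j12 and Cyp2w1 had 0 counts. The largest value in any library was 1.08 CPM for Cyp2j8, 0.598 CPM for Cyp2t4, 0.395 CPM for Cyp3a57 and 0.368 CPM for Cyp3a44. It was between 0.0445 and 0.247 CPM for Cyp2b19, Cyp2b23, Cyp2c65, Cyp2c66, Cyp2d12, Cyp2j11, Cyp2j13, Cyp2s1 and Cyp3a16. Cyp1a1 and Cyp1b1 complete the set.

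Members sit in clusters of tandem copies, so neighbours could be compared on GRCm38. On chromosome 19, the 11 tested members called lower in PP on average lie from Cyp2c55 (chr19:39007019-39042693) to Cyp2c50 (chr19:40089688-40113950), with no other tested member between them. Cyp2c65 (chr19:39061015-39093944) and Cyp2c66 (chr19:39113898-39187072) also lie there and were not tested, and the call of Cyp2c69 was lost in 16 alternatives. The next member, Cyp2c70 (chr19:40153353-40187333), begins 39402 bases further on and was not called for zone. On chromosome 7 the direction changes within a short distance. Cyp2a5 and Cyp2a22 were lower in PP, and Cyp2a12, which begins 89696 bases after the end of Cyp2a22, was higher. Cyp2f2 begins 82533 bases after the end of Cyp2a12 and was also higher. On chromosome 15, 2 members were lower on average (9.96% of all genes), 1 was higher (10.3%) and 4 were not called.

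**Figure D4:**
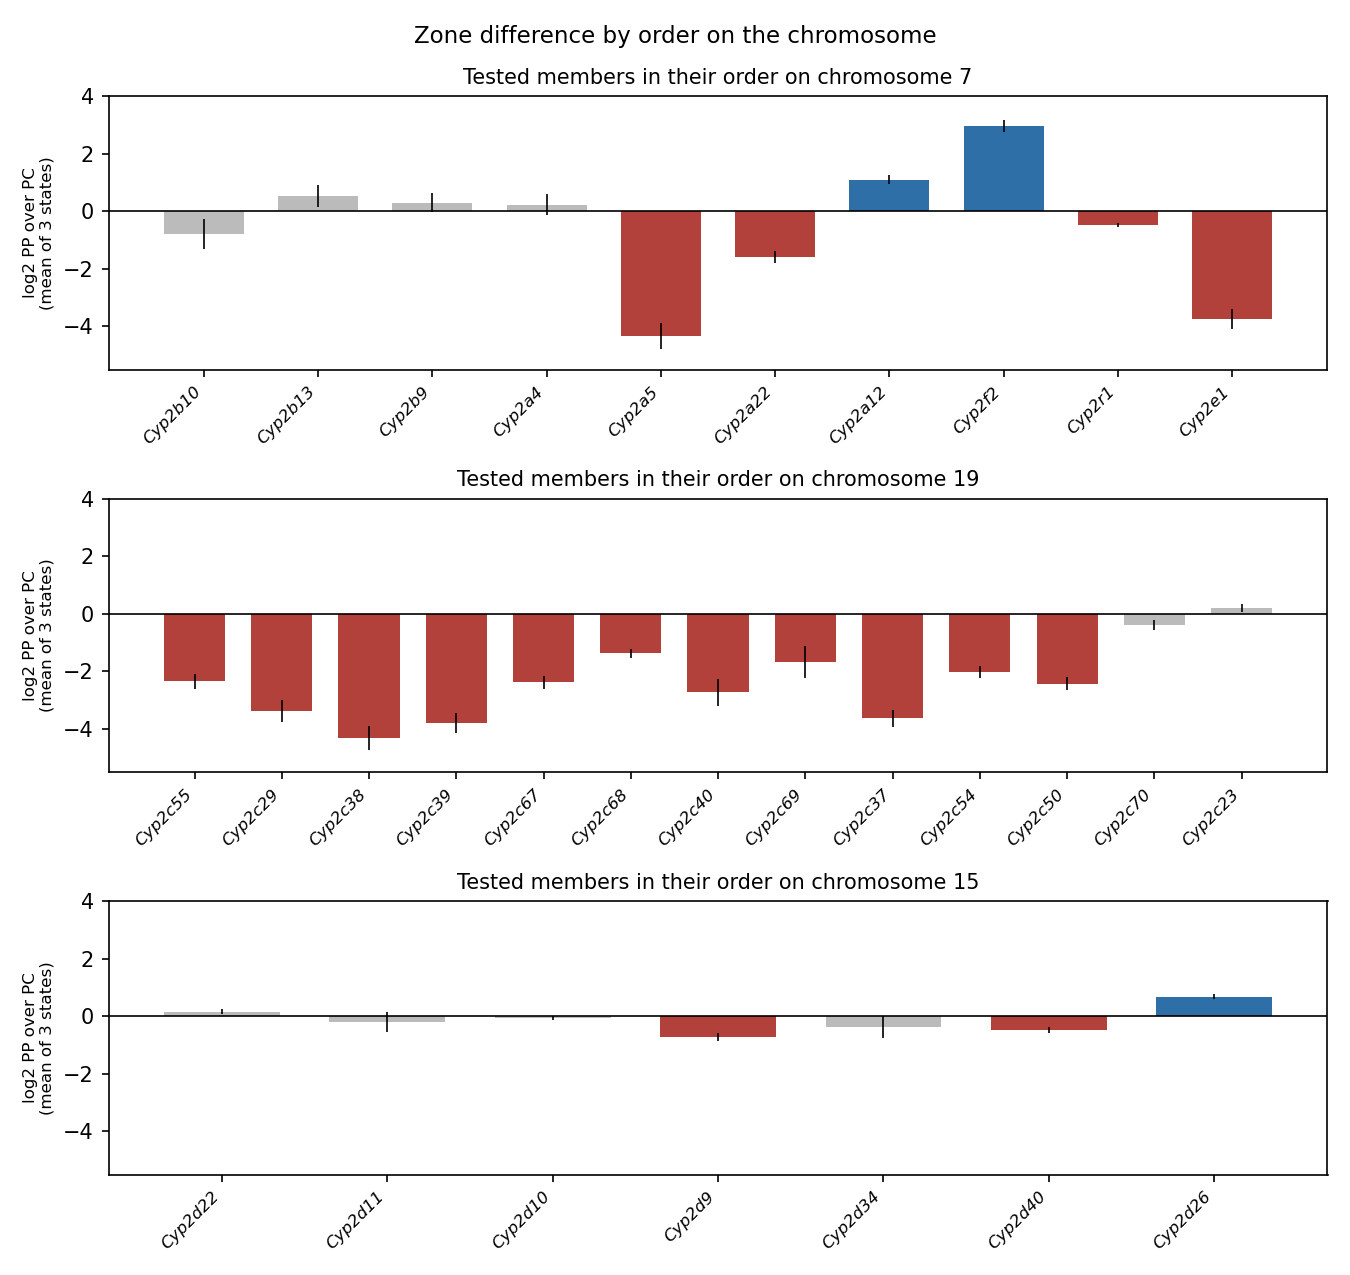
Bars give the log2 fold change of PP over PC averaged over the 3 states, with standard errors, for tested members in their order on chromosomes 7, 19 and 15 (distances not to scale, Cyp2g1 left out). Red bars were called lower in PP, blue bars higher, and grey bars were not called. The red bars on chromosome 19 end before Cyp2c70, and on chromosome 7 the bars change from red to blue between Cyp2a22 and Cyp2a12.

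The fasting comparisons asked which members changed with feeding state within a zone. The counts stood near the share of all genes or under it. In PC after 8 h, 1 of 40 changed, against 13.8% of all genes, and it fell (6.57% of all genes fell). After 24 h against fed, 7 changed in PC, against 21.8% of all genes, with 3 up (10.8%) and 4 down (11.1%). Between 8 h and 24 h in PC, 3 changed (9.71% of all genes), with 1 up (5.2%) and 2 down (4.51%). In PP after 8 h, 2 changed (14.4% of all genes), both up (7.56%), and 0 fell (6.85%). After 24 h against fed, 5 changed in PP (19.6% of all genes), with 1 up (9.59%) and 4 down (10%). Between 8 h and 24 h in PP, 3 changed (7.46% of all genes), all down (4.24%), and 0 rose (3.22%). In 27 members no fasting contrast was called, a pattern not counted over all genes. Without PC replicate 2 at 24 h, 4 members were called in PC at 24 h against fed (2 up, 2 down), and Cyp3a25, Cyp2r1 and Cyp2d11 were no longer among them.

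**Figure D5:**
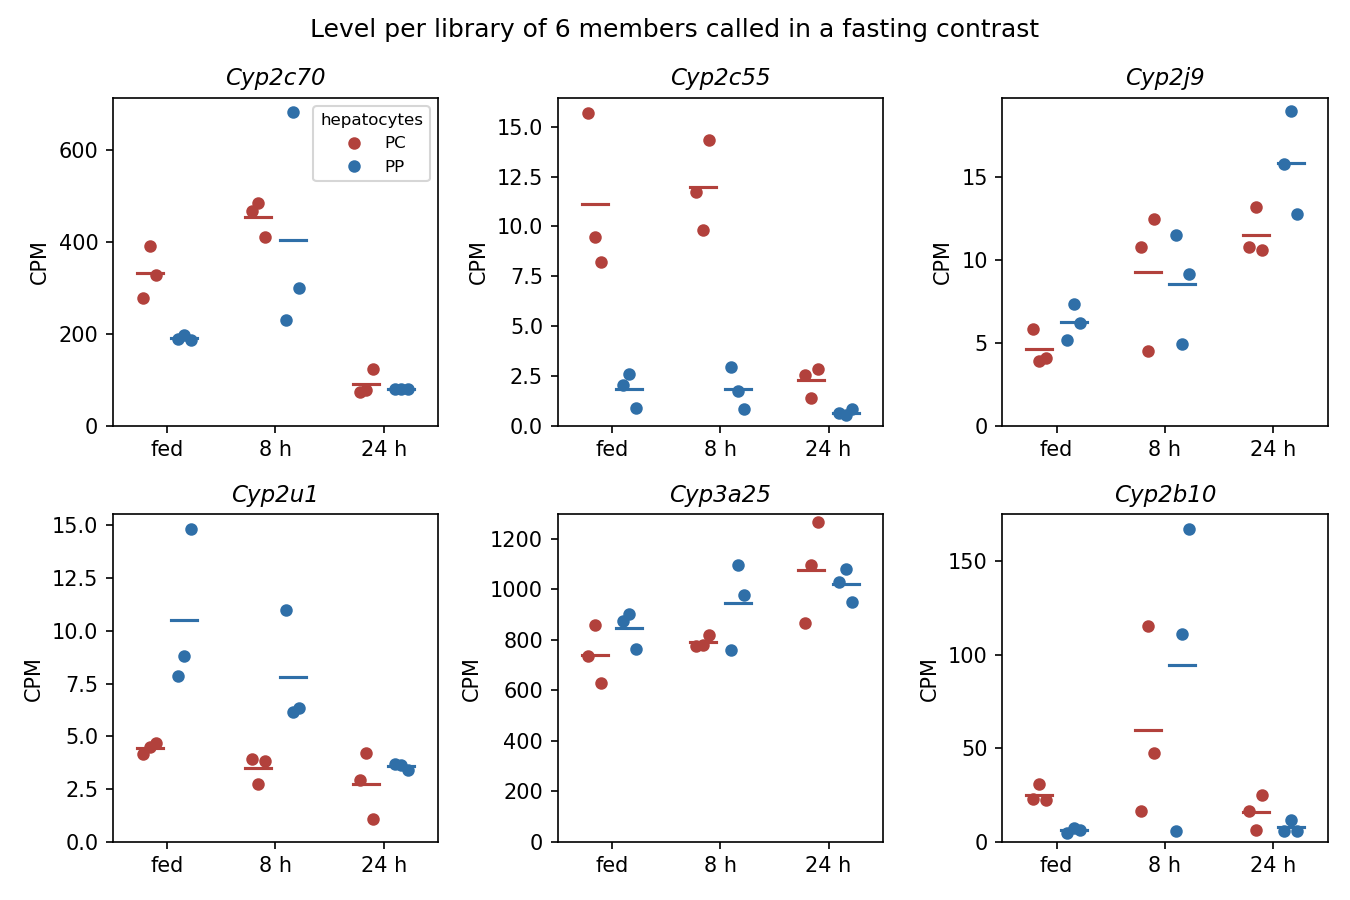
Each dot is 1 library (CPM, linear axis from 0) of Cyp2c70, Cyp2c55, Cyp2j9, Cyp2u1, Cyp3a25 and Cyp2b10 in the fed, 8 h and 24 h states, with PC in red, PP in blue and a line at the mean of 3. All 6 libraries of Cyp2c70 at 24 h lie between 72.5 and 124 CPM, below every fed and 8 h library.

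Cyp2c70 (ENSMUSG00000060613, chr19:40153353-40187333), which makes the muricholic bile acids of mice, changed the most clearly. In PC it had 277, 391 and 327 CPM when fed, 467, 484 and 411 CPM after 8 h, and 72.5, 77.7 and 124 CPM after 24 h. In PP it had 189, 196 and 187 CPM, then 229, 683 and 300.3 CPM, then 80.3, 79.6 and 80.4 CPM. At 24 h against fed the log2 fold change was -1.86 in PC (SE 0.31, edgeR adjusted p 0.000646) and -1.25 in PP (SE 0.30, edgeR adjusted p 0.00979). At 24 h against 8 h it was -2.31 in PC and -2.33 in PP, the latter with an edgeR adjusted p of 0.0529 when only the 2 groups were fitted. The rise in PP after 8 h (1.08, edgeR adjusted p 0.0254) shrank to 0.47 and was lost without PP replicate 2, and was also lost without any 1 of the fed PP libraries. Cyp2c55, a member inducible through CAR and PXR, had 15.7, 9.49 and 8.22 CPM in fed PC and 2.54, 1.40 and 2.87 CPM after 24 h (-2.31, edgeR adjusted p 0.00096). In PP it fell from 2.06, 2.60 and 0.882 CPM to 0.615, 0.540 and 0.828 CPM (-1.47, edgeR adjusted p 0.0492), a call lost in 16 alternatives. Cyp2j9, of the arachidonic acid-metabolising Cyp2j group, rose in both zones. It had 5.84, 3.90 and 4.09 CPM in fed PC and 10.8, 13.2 and 10.6 CPM after 24 h (1.32, edgeR adjusted p 0.0108), and 5.16, 7.35 and 6.17 CPM in fed PP and 15.8, 19 and 12.8 CPM after 24 h (1.35, edgeR adjusted p 0.0098, or 0.0509 without fed PP replicate 1).

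Other changes were called in 1 zone. In PC after 24 h, Cyp2f2 rose by 1.44 on the log2 scale (SE 0.33, edgeR adjusted p 0.00526), and by 0.89 without PC replicate 2 (edgeR adjusted p 0.027). When only the 2 groups were fitted the adjusted p by edgeR was 0.0852. Cyp3a25, a CYP3A enzyme of liver and gut, had 736, 859 and 628 CPM in fed PC and 865, 1097 and 1265 CPM after 24 h (0.54, edgeR adjusted p 0.0214), a call lost in 5 alternatives. Cyp2r1 fell by 0.41 (edgeR adjusted p 0.0388), and the call was lost in 6 alternatives: no filter, only the 2 groups fitted, and without fed PC replicate 2 or 3 or PC 24 h replicate 1 or 2 (edgeR adjusted p up to 0.159). Cyp2d11 had 0.484, 0.354 and 0.818 CPM in fed PC and 0.195, 0.110 and 0.198 CPM after 24 h. It was tested only because of PC libraries of the fed and 8 h groups, and its call (-1.70, edgeR adjusted p 0.043) was lost in 15 alternatives, DESeq2 and limma-voom among them. Without it and Cyp2g1, 6 of 38 members were called in this comparison, 3 of them down. In the same PC comparison 7 of 10 periportal markers rose (10.8% of all genes). The sum of the periportal markers went from 3331 to 9449 CPM, of which Pck1, a gluconeogenic enzyme induced by fasting, went from 170 to 4820 CPM, and the sum without Pck1 from 3162 to 4629 CPM. Their part in the rise of Cyp2f2 was not tested. In PP after 24 h, Cyp2u1 fell to 3.69, 3.66 and 3.40 CPM (-1.55, edgeR adjusted p 0.00556), and Cyp2j5 fell to 501, 506 and 571 CPM (-0.39, edgeR adjusted p 0.0305). The call of Cyp2j5 was lost without fed PP replicate 1 or 3 or PP 24 h replicate 1 or 2 (edgeR adjusted p 0.0811 to 0.094). In PC after 8 h, Cyp2a22 fell to 2.21, 2.46 and 2.86 CPM (-1.48, edgeR adjusted p 0.0111), a call lost without fed PC replicate 2 (-0.93). Between 8 h and 24 h, Cyp2d26 rose in PC (0.66, edgeR adjusted p 0.0067) and Cyp2c54 fell in PP, from 113, 106 and 254 CPM to 82.8, 71.4 and 41.2 CPM (-1.28, edgeR adjusted p 0.0485). That call was lost in 17 alternatives, and without PP 8 h replicate 3 the value was -0.75.

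Cyp2b10 varied most after 8 h. Its PP libraries had 5.57, 111 and 167 CPM, and its PC libraries 16.4, 115 and 47.3 CPM. Replicate 1 was the lowest in both zones. PP at 8 h was called higher than fed (3.94, SE 0.98, edgeR adjusted p 0.0164) and than 24 h, where it had 5.87, 11.8 and 5.98 CPM (24 h against 8 h -3.57, edgeR adjusted p 0.0416), although 1 of the 3 libraries at 8 h lay within the fed range. The first call was lost in 6 alternatives, among them leaving out PP 8 h replicate 3 (3.25) or any fed PP library, and the second in 17. Large single-gene differences without a call were also present in the PC-rich members. From fed to 8 h in PC, Cyp2a5 had a log2 fold change of -1.77 (edgeR adjusted p 0.125) with no overlap between the libraries. From fed to 24 h in PC, Cyp1a2 had -1.20 (edgeR adjusted p 0.136) and Cyp2c29 -1.56 (edgeR adjusted p 0.0933), also with no overlap. Fitting only the 2 groups compared called all 3 (edgeR adjusted p 0.0341, 0.0218 and 0.00212). The fits at 24 h included PC replicate 2, the lowest library of its group in both Cyp1a2 and Cyp2c29. Without it the PC 24 h mean was 417 CPM for Cyp1a2 (346 with it) and 1297 CPM for Cyp2c29 (1142 with it).

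Whether a fasting change differed between the zones was tested as the change in PP minus the change in PC. By edgeR 0 of 40 members were called from fed to 8 h (0% of all genes) and 0 from fed to 24 h (0.016% of all genes). Without adjustment, p was under 0.05 in 4 and 5 members, and DESeq2 called 0 and 1. The shares of all genes at these thresholds are not given here, so these counts are no result about the members. The member called by DESeq2 was Cyp2f2, whose zone difference narrowed by 24 h (-1.73, SE 0.46, edgeR adjusted p 0.345, DESeq2 adjusted p 0.0276). Over the other alternatives its adjusted p lay between 0.185 and 0.722, the latter without PC 24 h replicate 2 (-1.19). A call in 1 zone and not in the other does not show a difference between zones.

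Grouped by inducer, Cyp1a2 alone of 3 AHR targets passed the filter. Of 6 CAR and PXR targets (Cyp2b10, Cyp2c29, Cyp2c55, Cyp3a11, Cyp3a13 and Cyp3a25), 3 were lower in PP on average (Cyp2c29, Cyp2c55 and Cyp3a11; 9.96% of all genes), with a median log2 fold change of -0.74 for the 6. In PC at 24 h against fed 1 rose (Cyp3a25; 10.8% of all genes) and 1 fell (Cyp2c55; 11.1%), with a median of -0.43. Of 7 members that are female-biased in mouse liver, 5 were tested in these male mice, and Cyp2c40 and Cyp2c69 were lower in PP on average, against the same 9.96% of all genes. Of 6 members with a named endogenous substrate (Cyp2c23, Cyp2c70, Cyp2e1, Cyp2j5, Cyp2r1 and Cyp2u1), 2 were lower (9.96% of all genes) and 2 higher (10.3%) in PP on average, and in PP at 24 h against fed 3 fell (Cyp2c70, Cyp2j5 and Cyp2u1; 10% of all genes).

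Of 7 genes whose products pass electrons to the P450 enzymes or support that transfer, Por, Cyb5a and Cyb5b were lower in PP on average (9.96% of all genes). Por, the P450 reductase, was at a mean of 531 CPM in fed PC and 284 CPM in fed PP (log2 fold change -0.90, edgeR adjusted p 0.029). After 24 h it rose to 1505 CPM in PC (1.5, edgeR adjusted p 0.000437) and 1092 CPM in PP (1.94, edgeR adjusted p 7.06e-05), the 1 gene of the 7 that was higher in each zone (10.8% and 9.59% of all genes). Cyb5b, an outer mitochondrial membrane cytochrome b5, was lower than fed in PC after 8 h (-0.51, edgeR adjusted p 0.0305) and 24 h (-1.0, edgeR adjusted p 0.000214), and in PP after 8 h (-0.64, edgeR adjusted p 0.00869) and 24 h (-1.10, edgeR adjusted p 0.000126). Cyb5r3, a cytochrome b5 reductase, was lower in PP at 24 h than at 8 h (-0.49, edgeR adjusted p 0.0468). Alas1, which catalyses the first step of heme synthesis, fell after 8 h from 730 to 182 CPM in PC (-2.0, edgeR adjusted p 0.00776) and from 447 to 130 CPM in PP (-1.78, edgeR adjusted p 0.015).

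Among the regulators, Ahr was the only one of 6 genes of the AHR arm called for zone. It was lower in PP in fed mice (-2.84, edgeR adjusted p 0.00091), after 8 h (-2.67) and after 24 h (-2.17). Of all genes, 4.13%, 3.42% and 2.47% were lower in PP in these states. Of 9 nuclear receptor genes and partners, Nr1i3 (CAR) was lower in PP in fed mice (-1.79, edgeR adjusted p 0.000392) and after 8 h (-1.08). The shares of all genes are the same 4.13% and 3.42%. At 24 h against fed, 4 of the 9 rose in PC (10.8% of all genes) and 0 fell (11.1%). In PP 5 rose (9.59%) and 1 fell (10%). Hnf4a, Ppara and Ppargc1a rose in both zones. Nr1i2 (PXR) rose after 24 h in PC (1.03, edgeR adjusted p 2.37e-05) and PP (0.89, edgeR adjusted p 8.56e-05), and Nr1i3 rose in PP (1.31, edgeR adjusted p 0.00218). Nr1i2 was also called higher at 8 h than in fed mice in both zones. Of the 4 D-box-binding factors, Dbp, Tef and Hlf were lower at 8 h than in fed mice and Nfil3 was higher, in both zones. Of all genes, 6.57% were lower and 7.27% higher in PC at 8 h, and 6.85% and 7.56% in PP. Dbp had a mean of 18.7 CPM in fed PC, 0.621 CPM after 8 h and 35.9 CPM after 24 h, the 8 h libraries being the only ones taken at clock hour 21.

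Members differed in how far replicates agreed. Over the 21 tested members with a mean of at least 100 CPM, the coefficient of variation within a group (median over the 6 groups) ran from 5.56% for Cyp2d10 to 49.5% for Cyp2a5, with a median of 21.5%. Cyp2a5, Cyp2c37, Cyp1a2, Cyp2c29 and Cyp2e1, all high in PC, were the 5 most variable by this median. In Cyp2e1 and Cyp2c29 the spread was wider in PP, where their level is low. The coefficient for Cyp2e1 was 7.32% to 22.1% in the PC groups and 44.0% to 78.1% in the PP groups. For Cyp2c29 it was 7.83% to 26.2% and 45.4% to 99.1%. In Cyp2a5, Cyp2c37 and Cyp1a2 the ranges of the 2 zones overlapped. Cyp2d10, Cyp2j5, Cyp2d26, Cyp3a25 and Cyp2d22 were the 5 least variable. In the 10 members under 5 CPM the median was 49.6%, so replicate spread was wider there.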

How the data were processed

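RNA was measured in 18 libraries of pericentral or periportal hepatocytes, made with the NEBNext Ultra kit from total RNA, per the labels' protocols. The authors deposited a table of estimated counts per Ensembl gene, not normalised. kallisto 0.46.0 and the build mm10 are named in the submitters' processing notes, while annotation and strand use are not given in the sources used here. Symbols came from a table of gene names, which matched 27566 of 28030 identifiers. Estimated counts were rounded to whole numbers. Genes were filtered with filterByExpr, scaled by TMM and tested in edgeR 4.0.16 (robust quasi-likelihood, R 4.3.3), in 1 fit of 18 libraries with 6 group coefficients. From it 12 contrasts were taken, adjusted by Benjamini-Hochberg over 12477 genes and called at adjusted p under 0.05. The standard error is the log2 fold change divided by the square root of F. The test was checked on simulated counts.

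Depth was 18359911 to 26384358 counts per library, and 3 libraries per group limit the precision. Replicates held different values, so none was counted as a duplicate. Coordinates, transcripts and coding sequences were taken from GENCODE M21 (GRCm38, the build mm10), and promoters from RefSeq. Levels were described in CPM and, between genes, in CPM per kilobase. Values per library are given for the member with most RNA in each subfamily and, per contrast, for up to 3 called members with the largest change in each direction. Of the remaining members a few are named with values chosen after they were seen (among them Cyp2a4 and Cyp2c37), and the rest are given as counts and ranges. The members and gene lists were chosen with earlier results of these data known. Alternatives were DESeq2 1.42.0, its size factors, limma-voom (limma 3.58.1), 2 other filters, only the groups compared, scaling without the 20 most abundant genes, replicate number as a block, and leaving out each library.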

Additional observations from a re-analysis of the deposited data

How the results depend on the processing

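Of 98 calls of a member in a contrast, 67 held under every alternative run and 0 changed sign. For the counts of members called, DESeq2 gave 6 in PC at 24 h against 8 h (3 by edgeR), 2 in PC at 8 h against fed (1), 8 in PP at 24 h against 8 h (3), 8 in PP at 24 h against fed (5) and 1 for the zone difference from fed to 24 h (0). Fitting only the groups compared gave 2, 1 and 0 in PC at 8 h against fed, PP at 24 h against 8 h and PP at 8 h against fed (2). The filter at a mean of 1 CPM gave 2 in PC at 8 h against fed. No filter gave 1 in both PP at 24 h against 8 h and PP at 8 h against fed, and limma-voom gave 1 in the latter. The cause of these shifts was not tested. Shares of all genes under the alternatives are not given here, so these counts describe the processing and not the members. Leaving out 1 library gave 17 to 23 members for the fed zone contrast, 14 to 18 at 8 h, 12 to 15 at 24 h and 23 to 26 on average. In PC it gave 0 to 2 at 8 h against fed (0 without PC fed replicate 2), 4 to 8 at 24 h against fed and 3 to 5 at 24 h against 8 h (5 without PC 24 h replicate 1). In PP it gave 0 to 2 at 8 h against fed, 4 to 6 at 24 h against fed and 1 to 4 at 24 h against 8 h. Both zone differences stayed at 0. PP at 8 h against fed was 0 without fed PP replicate 1, 2 or 3. Over all groups, 7 of 45 same-numbered pairs correlated above 0.1 (median 0.032), against 3 of 90 differently numbered pairs (median -0.0207). Of the 9 same-numbered pairs of the 2 zones in 1 state, 3 were above 0.1, all at 24 h (0.121, 0.165 and 0.147). There the differently numbered pairs of the 2 zones were all negative. Whether same-numbered libraries came from 1 mouse was not settled by these values. With the replicate block, PP at 24 h against 8 h had 1 member called, and no other count moved by over 1.5 times. With the single most abundant member in place of the sum, the log2 ratio of PP to PC was -4.50 (sum -1.88) for Cyp2a, -3.47 (-2.21) for Cyp2c, -0.68 (-0.15) for Cyp2d, -1.37 (-1.81) for the Cyp2c40 to Cyp2c69 copies and -0.68 (-0.47) for the Cyp2d9 copies. The cause was not tested. Neither scaling alternative moved the median of all genes by more than 0.021. Estimated counts for near-identical copies limit the level of single members, and depth left 18 members untested.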
